A study of Mus musculus with 8 samples.

Results

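The genes described here are 9 that encode magnesium channels, magnesium exchangers and their regulators: Trpm6, Trpm7, Cnnm2, Cnnm4, Slc41a1, Slc41a3, Egf, Fxyd2 and Pcbd1. They were chosen by symbol, and each was measured by every array probe whose RefSeq accession belongs to one of these genes. This gave 10 probes of the 55681 non-control probes on the array, 2 for Fxyd2 and 1 for each other gene, and all 10 were well above background on all 8 arrays. The 9 genes were among 14209 genes tested. RNA came from whole kidney of mice labelled male and 12 weeks old, 4 samples from mice on standard chow and 4 from mice given cinacalcet hydrochloride for 5 days. The dose is worded in the labels as 1 mg per g body weight. No strain, genotype or further basis of the dose is given in the sources used here, and no allele or agent other than the drug is named. Whether the numbered samples are separate animals is not stated, and the spread behind each p-value is that between samples, which may be technical.

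Cinacalcet is a calcimimetic, a drug that makes the calcium-sensing receptor respond to less calcium. The kidney recovers filtered magnesium by a paracellular route in the thick ascending limb, driven by the voltage across the epithelium, and by an active transcellular route in the distal convoluted tubule. In the latter, magnesium enters through the apical channel TRPM6, epidermal growth factor raises that channel's activity, and exchangers and the sodium gradient set by the sodium pump carry magnesium out across the basolateral side. PCBD1 is a transcriptional cofactor, and FXYD2 is a regulatory subunit of the sodium pump. Inherited variants of TRPM6, CNNM2, EGF, FXYD2 or PCBD1 are known causes of low blood magnesium.

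The stretch before the start of Pcbd1 and Cnnm2 is shown because these were the members that changed. Both are RefSeq sequences of build GRCm38.p6, 250 bases long and on the plus strand. For Pcbd1 the stretch is chr10:61089081-61089330, and for Cnnm2 it is chr19:46761359-46761608. Capitals mark CG pairs, which read the same on both strands.
Pcbd1: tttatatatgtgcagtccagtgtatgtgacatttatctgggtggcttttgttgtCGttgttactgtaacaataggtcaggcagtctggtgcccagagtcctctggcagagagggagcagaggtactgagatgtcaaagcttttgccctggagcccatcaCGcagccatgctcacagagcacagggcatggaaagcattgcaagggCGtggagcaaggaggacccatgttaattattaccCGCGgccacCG
Cnnm2: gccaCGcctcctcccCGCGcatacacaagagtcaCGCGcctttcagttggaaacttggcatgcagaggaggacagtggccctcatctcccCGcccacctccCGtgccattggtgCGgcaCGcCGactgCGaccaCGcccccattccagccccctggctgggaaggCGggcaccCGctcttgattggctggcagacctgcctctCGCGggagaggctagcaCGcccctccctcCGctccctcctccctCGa
The Pcbd1 stretch holds 6 CG pairs and is 51.6% G or C, and the Cnnm2 stretch holds 19 CG pairs and is 68% G or C. The RefSeq promoters given held 9 such stretches for 8 of the 9 genes (all but Fxyd2), with 0 to 34 CG pairs, and 8 of the 9 held at least 1. Among all 32851 stretches of this length 92.1% held at least 1 CG pair, with a median of 6 pairs and a median G or C content of 52.4%. The counts describe the letters only, since methylation was not measured.

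Levels below are log2 signals relative to each array's 75th percentile, given with SD and n = 4 per group. Log2 fold changes were fitted with limma as cinacalcet minus control, and a call is an adjusted p under 0.05 over all 14209 genes. The 75th percentile signal ranged from 202.9 to 257.1 between arrays, and the number of arrays limits the precision. The arrays labelled control 4, cinacalcet 2 and cinacalcet 3 had Xist at 0.46 to 0.95 and 0 of 4 Y-linked genes (Uty, Kdm5d, Ddx3y, Eif2s3y) above background. The remaining 5 arrays had Xist at -6.99 to -4.22 and at least 3 of these 4 genes above background. These 3 arrays go against the label male. The fold change of each of the 9 genes is therefore also given with presence of Y-linked signal as a block in the fit, and for the 5 arrays that have such signal, 3 control and 2 cinacalcet.

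Of the 9 genes, Pcbd1 and Cnnm2 fell with cinacalcet, none rose, and 7 did not pass the threshold. That is 2 of 9, where 8.02% of all genes tested were called in either direction, 4.64% as lower and 3.37% as higher. The estimates of the other members were higher with cinacalcet for Egf, Trpm6, Slc41a1, Cnnm4, Slc41a3 and Trpm7 and lower for Fxyd2. An unadjusted p under 0.05 was reached by 7 of the 9, against 27.9% of all genes. The median log2 fold change of the 9 genes was 0.28, against -0.03 over all genes. With Y-linked signal as a block Pcbd1 and Cnnm2 fell and Egf rose, 3 of 9 against 17.0% of all genes. On the 5 arrays with Y-linked signal Pcbd1 alone of the 9 fell, against 7.85% of all genes.

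**Figure D1:**
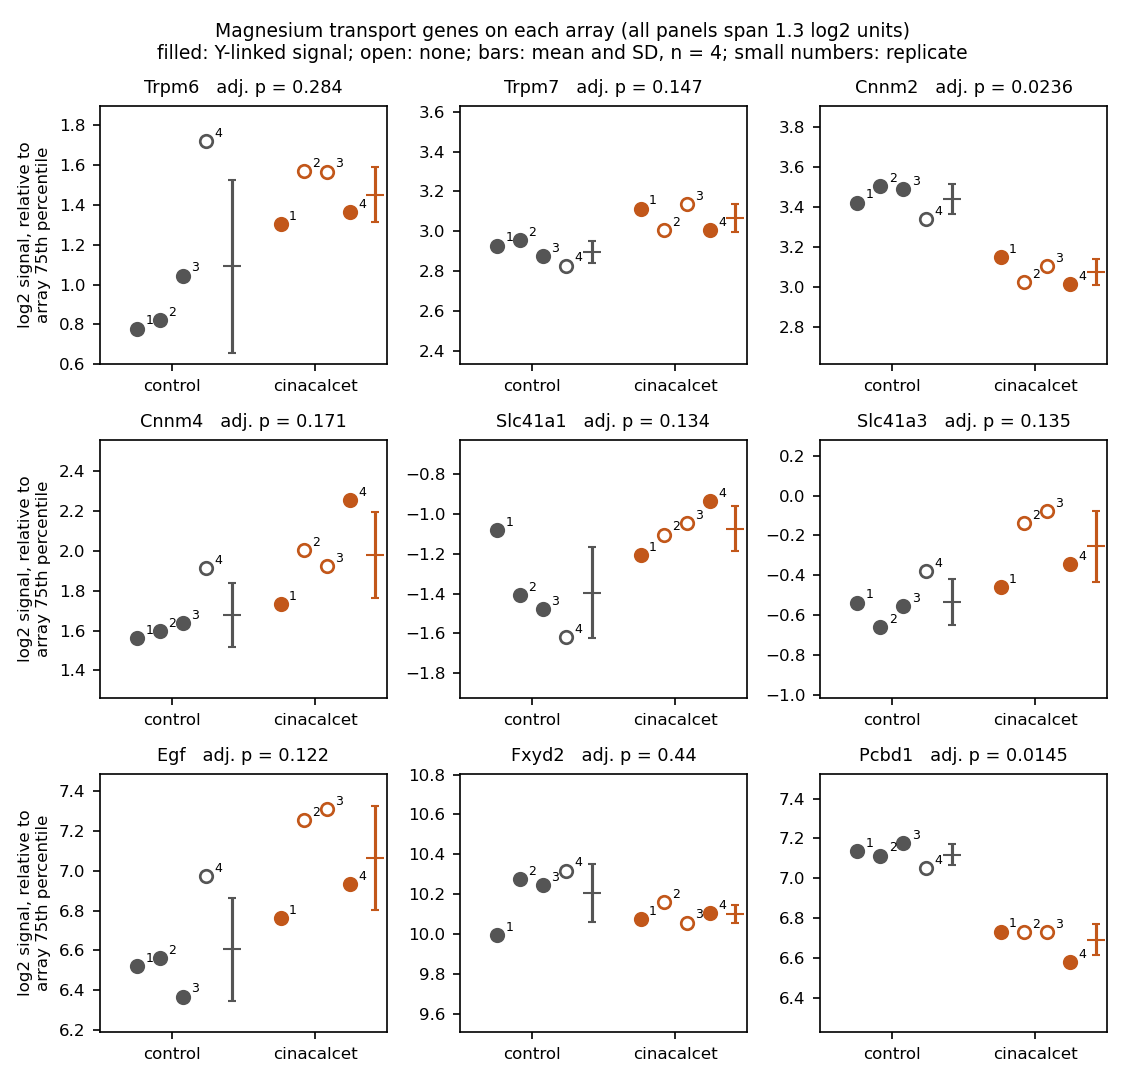
The log2 signal of each of the 9 genes, relative to the 75th percentile of its array, is plotted for the 4 control and 4 cinacalcet arrays, with open points for the 3 arrays without Y-linked signal and bars for mean and SD. The cinacalcet points lie below all control points for Cnnm2 and Pcbd1 and above them for Trpm7, and overlap them for the other 6 genes.

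Pcbd1 encodes a small protein that acts as a transcriptional cofactor and also serves as a dehydratase in the recycling of tetrahydrobiopterin. Its level on control arrays 1 to 4 was 7.14, 7.11, 7.17 and 7.05. On cinacalcet arrays 1 to 4 it was 6.73, 6.73, 6.73 and 6.58. All cinacalcet arrays were thus below all control arrays, and the lowest control was the array without Y-linked signal. Pcbd1 fell 1.34-fold from 7.12 ± 0.05 to 6.69 ± 0.08. The log2 fold change was -0.43 (SE 0.07, 95% interval -0.58 to -0.27, limma adjusted p = 0.0145). With the block the value was -0.43 (adjusted p = 0.00874), and -0.49 within the 5 arrays holding Y-linked signal (adjusted p = 0.0374). The call was lost without control 2 (adjusted p = 0.0521) or control 3 (0.0558) and held without each of the other 6 arrays. A block for slide column also ended it (-0.43, adjusted p = 0.141), a fit that compares groups only within columns that hold both. Those columns set cinacalcet 2 and cinacalcet 3, without Y-linked signal, against control 3 and control 1, which have it. For every gene, this fit therefore cannot tell treatment from the split in Y-linked signal.

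Cnnm2 encodes a basolateral membrane protein of the thick ascending limb and distal convoluted tubule that takes part in magnesium transport. Its control levels were 3.42, 3.51, 3.49 and 3.34, and its cinacalcet levels 3.15, 3.02, 3.10 and 3.01. The groups did not overlap, and control 4 was again the lowest control. Cnnm2 fell 1.29-fold from 3.44 ± 0.08 to 3.07 ± 0.07. The log2 fold change was -0.37 (SE 0.07, 95% interval -0.53 to -0.21, limma adjusted p = 0.0236). The value was -0.35 with the block (adjusted p = 0.0141) and -0.39 for the 5 arrays that have Y-linked signal, where it did not pass (adjusted p = 0.0501). The call held without control 4 or cinacalcet 1 and was lost without each of the other 6 arrays (adjusted p of 0.0568 to 0.0812), with no filter on dim probes (0.0620) and under the slide column block (0.165).

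The related gene Cnnm4, known for sodium-dependent magnesium extrusion at the basolateral side of gut epithelium, did not follow Cnnm2. Its control levels were 1.56, 1.60, 1.64 and 1.91, and its cinacalcet levels 1.73, 2.00, 1.92 and 2.25. The groups overlapped through control 4, the highest control, which lay above cinacalcet 1. The log2 fold change was 0.30 (SE 0.13, adjusted p = 0.171), with a 95% interval of 0.01 to 0.59, 0.27 with the block (adjusted p = 0.180) and 0.39 on the 5 arrays (adjusted p = 0.176). Cnnm4 passed as higher with array weights (0.34, adjusted p = 0.0195). Array weights, also cited for genes below, called 5438 of the 14209 genes, against 1139 in the reported fit.

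The channel genes were Trpm6 and Trpm7. Trpm6 encodes the channel-kinase through which magnesium enters distal convoluted tubule cells. Its control levels were 0.78, 0.82, 1.04 and 1.72, and its cinacalcet levels 1.31, 1.57, 1.57 and 1.36. Control 4 was the highest of all 8 arrays, and the other 3 controls lay below every cinacalcet array. The group means were 1.09 ± 0.43 and 1.45 ± 0.14, with a log2 fold change of 0.36 (SE 0.20, 95% interval -0.11 to 0.83, adjusted p = 0.284). Among arrays with Y-linked signal the means were 0.88 in controls and 1.33 with cinacalcet, while among those without it control 4 stood at 1.72 and the cinacalcet mean at 1.57. The value was 0.24 with the block (adjusted p = 0.239) and 0.45 on the 5 arrays (adjusted p = 0.0623). Trpm6 passed as higher without control 4 (log2 fold change 0.57, adjusted p = 0.0145) and with array weights (0.55, adjusted p = 0.0122). Without control 4 every control array has Y-linked signal, while cinacalcet 2 and cinacalcet 3 lack it, so that fit is unbalanced. Under the slide column block, which follows the split in Y-linked signal, Trpm6 was at 0.66 without passing (adjusted p = 0.243).

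Trpm7, the broadly expressed relative of Trpm6, varied little. Its control levels were 2.93, 2.95, 2.88 and 2.83, and its cinacalcet levels 3.11, 3.01, 3.14 and 3.01. All cinacalcet arrays were above all control arrays, but by a small amount, and the gene did not pass (log2 fold change 0.17, SE 0.07, 95% interval 0.02 to 0.32, adjusted p = 0.147). The value was 0.18 with the block (adjusted p = 0.0980) and 0.14 on the 5 arrays (adjusted p = 0.263). It passed as higher with normexp and quantile normalization (adjusted p = 0.0365). The groups did not overlap for 3 of the 9 genes, Pcbd1, Cnnm2 and Trpm7, where 17.8% of all genes did not overlap, 9.80% with cinacalcet lower and 8.01% with it higher.

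The Slc41 genes encode magnesium transporters held to exchange sodium for magnesium. Slc41a1, a widely expressed magnesium extruder, was at -1.08, -1.41, -1.48 and -1.62 in controls and at -1.21, -1.10, -1.05 and -0.94 with cinacalcet. Control 1 stood above cinacalcet 1 and cinacalcet 2, and the other 3 controls lay below every cinacalcet array. The log2 fold change was 0.32 (SE 0.12, 95% interval 0.04 to 0.60, adjusted p = 0.134), 0.35 with the block (adjusted p = 0.0820) and 0.25 on the 5 arrays (adjusted p = 0.331). With normexp background correction it was 0.20 with either scaling, and 0.21 under the slide column block (adjusted p = 0.472). Slc41a3, an exchanger gene enriched in the distal convoluted tubule, was at -0.54, -0.66, -0.56 and -0.38 in controls and at -0.46, -0.14, -0.08 and -0.34 with cinacalcet. Only control 4 overlapped the cinacalcet arrays. Its log2 fold change was 0.28 (SE 0.11, 95% interval 0.04 to 0.52, adjusted p = 0.135), 0.22 with the block (adjusted p = 0.0573) and 0.18 on the 5 arrays (adjusted p = 0.199). Slc41a3 passed as higher with array weights (0.38, adjusted p = 0.0134), and the slide column block gave 0.44 without a call.

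Egf encodes the precursor of epidermal growth factor, which the kidney makes chiefly in the thick ascending limb and distal convoluted tubule. Its control levels were 6.52, 6.56, 6.37 and 6.97, and its cinacalcet levels 6.76, 7.25, 7.31 and 6.93. The groups overlapped through control 4, which lay above cinacalcet 1 and cinacalcet 4. The Egf probe has 10 spots on each array, whose SD within an array was 0.0349 to 0.0535, so the spread between arrays was larger than that between spots. Egf had the highest estimate of the 9 genes, a log2 fold change of 0.46 (SE 0.17, 95% interval 0.08 to 0.84), without passing (adjusted p = 0.122). Among arrays with Y-linked signal cinacalcet minus control was 0.36, and among those without it 0.31. With the block Egf rose by 0.34 (SE 0.07, adjusted p = 0.0217), and on the 5 arrays it was 0.36 higher without passing (adjusted p = 0.0824). Egf also passed as higher without control 4 (0.58, adjusted p = 0.0317) and with array weights (0.65, adjusted p = 0.00795). The fit without control 4 is unbalanced in Y-linked signal, which all its controls have and cinacalcet 2 and cinacalcet 3 lack. Among cinacalcet arrays Egf was 0.43 higher without that signal. The slide column block, which sets cinacalcet arrays without Y-linked signal against controls with it, gave 0.84 without a call (adjusted p = 0.107).

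Fxyd2 encodes the gamma subunit of the sodium pump and is abundant in kidney tubules. Its background-corrected signal before scaling was 262044, 273322, 273737 and 259008 on control arrays and 269160, 272899, 269025 and 256750 on cinacalcet arrays. The highest was 1.07 times the lowest, while the highest 75th percentile was 1.27 times the lowest. For the other 8 genes the same ratio of unscaled signals was 1.46 to 2.15. On the 8 arrays 0 non-control spots were marked as saturated. After scaling, the levels were 9.99, 10.27, 10.24 and 10.32 in controls and 10.08, 10.16, 10.06 and 10.10 with cinacalcet, and control 1 was the lowest of all. This gave a log2 fold change of -0.11 (SE 0.09, 95% interval -0.30 to 0.09, adjusted p = 0.440), -0.13 with the block (adjusted p = 0.326) and -0.08 on the 5 arrays (adjusted p = 0.654), and it was 0.01 with quantile normalization and -0.01 under the slide column block. The second Fxyd2 probe gave -0.14, in a fit over all probes above background.

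**Figure D2:**
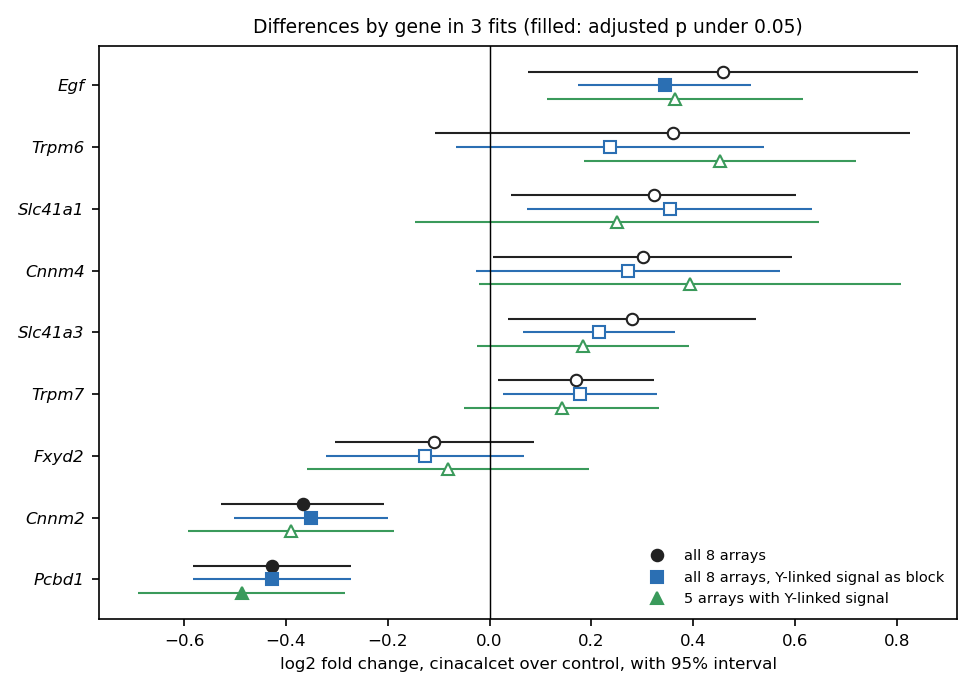
The log2 fold change of cinacalcet over control is plotted for each gene with its 95% interval, from all 8 arrays, from all 8 with Y-linked signal as a block, and from the 5 arrays with Y-linked signal, with filled symbols for an adjusted p under 0.05. Pcbd1 is filled in all 3 fits, Cnnm2 in the first 2 and Egf in the second, and all other symbols are open.

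The 8 arrays were also read as a set of 5 with Y-linked signal and a set of 3 without it, a reading added after the values were seen. In the set of 3, control 4 is the only control array, set against 2 cinacalcet arrays. In both sets all cinacalcet arrays were above the control arrays for Trpm7, Cnnm4, Slc41a3 and Egf and below them for Cnnm2 and Pcbd1. That is 6 of 9 genes, where 32.8% of all genes were apart in the same direction in both sets, 13.7% higher and 19.1% lower. Trpm6, Slc41a1 and Fxyd2 were not. For Cnnm4 the gap in the set of 3 was small, with control 4 at 1.91 and cinacalcet 3 at 1.92. The 2 sets also differed within a treatment: the arrays without Y-linked signal were higher for Egf by 0.49 among controls and 0.43 among cinacalcet arrays, and for Slc41a3 by 0.20 and 0.29. For Trpm6 these values were 0.84 and 0.23. For Pcbd1 they were -0.09 and 0.08, and for Cnnm2 -0.13 and -0.02. On the first principal component of all genes (56.0% of the variance) the 3 arrays without Y-linked signal scored 25.3 to 43.5 and the other 5 scored -37.3 to -2.41.

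After each group's mean was subtracted, some pairs of members correlated over the 8 arrays, in either direction. No grouping of the members was tested. These arrays share 1 slide and the split in Y-linked signal, so the correlations are descriptions only. Slc41a3 and Egf had r = 0.88 and Trpm6 and Egf 0.77, but with the split also subtracted these were 0.06 and -0.09. Trpm7 and Cnnm2 had r = 0.81 and Cnnm2 and Pcbd1 0.65, and these were 0.80 and 0.78 with the split subtracted. Cnnm4 ran against Cnnm2 and Pcbd1, at r = -0.83 and -0.84, or -0.82 and -0.90 with the split subtracted. Of the 36 pairs 15 were above 0 and 21 below. The genes whose levels followed Trpm6 most closely were Rragd (r = 0.99), a gene of the lysosomal nutrient-sensing GTPases that is itself mutated in a magnesium-wasting tubulopathy, Etnk1 (0.99) and Retnlg (0.98), with 64 genes above 0.95. Between groups Rragd, Etnk1 and Retnlg differed by -0.10, 0.22 and 2.60 on the log2 scale. Of them only Retnlg passed, as higher with cinacalcet (limma adjusted p = 0.0226). Rragd shared the high control 4 of Trpm6, at 0.34 against -0.76 to -0.49 on the other controls, and its cinacalcet levels were -0.62 to -0.41. The nearest to Cnnm2 were Evc2, Sar1a and Bax (0.99 each), and to Pcbd1 Cdh1, Nifk and Fam220a (0.98 each).

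Of 13 measured other magnesium transporters 1 rose, none fell and 12 did not pass (median log2 fold change -0.13). For this list and those that follow, 8.02% of all genes tested were called in either direction. The one that rose was Cnnm1, a relative of Cnnm2 known mainly from brain, at 2.14 ± 0.12 in controls and 2.63 ± 0.11 with cinacalcet, a log2 fold change of 0.49 (SE 0.09, adjusted p = 0.0215), with no overlap between groups. Its call was lost without control 2, control 3, cinacalcet 2 or cinacalcet 3 (adjusted p of 0.0550 to 0.0679), and likewise when only the 5 arrays with Y-linked signal were fitted (0.0569). No filter on dim probes (0.0514) and the slide column block (0.37, adjusted p = 0.196) also ended it, and it held with the Y-linked block (0.52, adjusted p = 0.00808). The CNNM genes measured here thus differed in direction, Cnnm1 having risen, Cnnm2 having fallen, and Cnnm3 and Cnnm4 standing at -0.13 and 0.30 without passing. Of 17 regulators of magnesium transport 1 fell, none rose and 16 did not pass (median -0.04). The one that fell was Pcbd2, the paralog of Pcbd1, from 3.39 ± 0.09 to 3.11 ± 0.05, a log2 fold change of -0.29 (SE 0.07, adjusted p = 0.0467). The Pcbd2 groups did not overlap, and its call was lost without each array other than control 4 (adjusted p of 0.0750 to 0.132), and when only the 5 arrays were fitted (0.0588). Slide row (0.0531) or slide column (0.185) as a block, no filter on dim probes (0.107) and normexp with the 75th percentile (0.0559) also ended it, and it held with the Y-linked block (-0.26, adjusted p = 0.0250). The EGF receptor gene Egfr differed by 0.14 on the log2 scale (adjusted p = 0.439).

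Of 12 genes of the paracellular route in the thick ascending limb 1 rose, none fell and 11 did not pass (median 0.09). Again 8.02% of all genes were called. The one that rose was Cldn14, a claudin that restricts divalent cation passage there, with a log2 fold change of 3.83 (SE 0.51, adjusted p = 0.0104). It was well above background on 2 of 4 control and 4 of 4 cinacalcet arrays, so the size of this change is uncertain. The value was 1.75 and 1.78 with normexp background correction, where it passed, and 4.86 under the slide column block, where it did not (adjusted p = 0.0731). Cldn14 passed at 3.44 with the Y-linked block (adjusted p = 2.01e-05) and at 3.51 on the 5 arrays (0.00421). Of 11 measured genes that set voltage and salt transport in the distal convoluted tubule none passed (median 0.10, limma). Kcnj10, a basolateral potassium channel gene and one of those with the lowest p, differed by 0.34 on the log2 scale (adjusted p = 0.135). It passed as higher with the Y-linked block (adjusted p = 0.0416), with array weights (0.0105) and without control 4 (0.0332), but not on the 5 arrays (0.103). The fit without control 4 leaves no control array that lacks Y-linked signal. The slide column block gave 0.54 (adjusted p = 0.168).

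**Figure D3:**
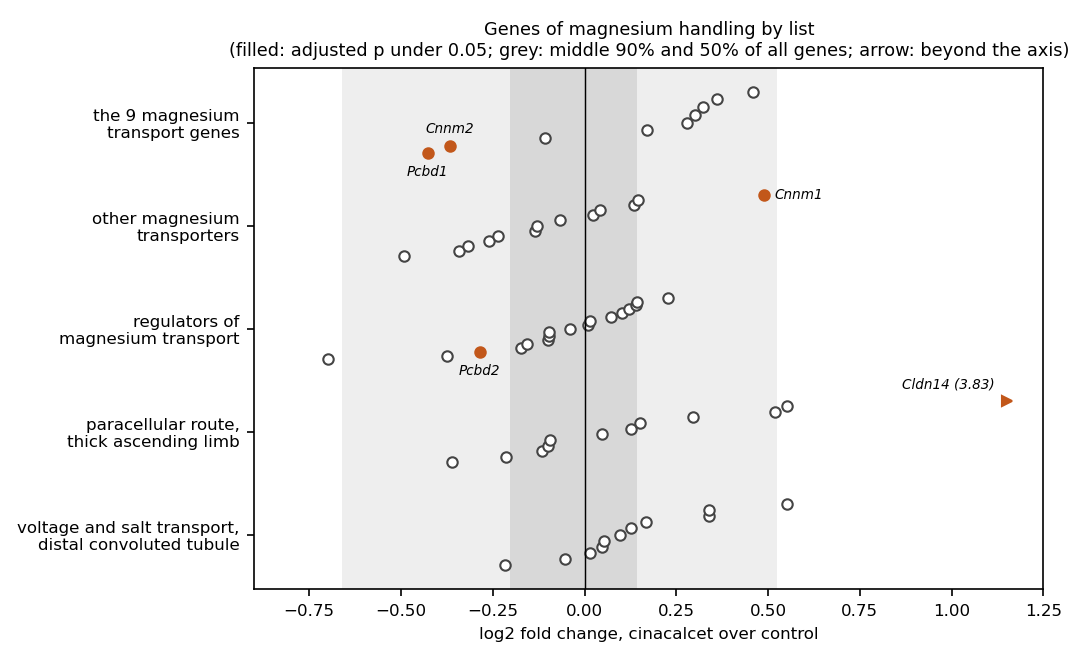
Each point is 1 gene's log2 fold change, cinacalcet over control, for the 9 members and 4 lists of other genes of magnesium handling, with filled points for an adjusted p under 0.05 and grey bands for the middle 90% and 50% of all 14209 genes. The called genes are Cnnm2, Pcbd1, Cnnm1, Pcbd2 and Cldn14, and the last lies beyond the axis at 3.83.

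In whole kidney, fewer cells of a type and less RNA per cell cannot be told apart. Markers of the nephron segments were measured as sums of scaled linear signal over a list. Such a sum follows the brightest markers of its list most, so it need not describe the others. In the distal convoluted tubule list Pvalb was brightest, at a log2 level of 5.18 in controls and 4.62 with cinacalcet (limma adjusted p = 0.166). In the immune list Csf1r was brightest. For 8 of 9 distal convoluted tubule markers (Klhl3 had no named probe) the sum was 54.8 to 76.3 on control arrays, highest on control 4, and 39.6 to 60.4 with cinacalcet. For all 8 thick ascending limb markers it was 511 to 617 and 490 to 602, with the arrays without Y-linked signal the 3 highest. None of these markers passed in either list. For the distal convoluted tubule 5 of the 8 estimates were higher with cinacalcet and 3 lower, and for the thick ascending limb 4 and 4. For all 8 proximal tubule markers the sum was 2668 to 2941 and 2355 to 2587, without overlap, although none passed singly. Of their estimates 5 were lower and 3 higher with cinacalcet, and the groups overlapped for each marker alone. Pcbd1 and Cnnm2 moved in the direction of this sum, though not of every marker in it, and no link between them was tested. Sums for 5 of 6 erythroid markers (509 to 727 and 101 to 321) and 6 of 8 immune markers (31.8 to 35.4 and 23.5 to 29.8) were also lower with cinacalcet without overlap. The immune markers did not move one way. The macrophage genes Adgre1 (log2 fold change -1.65, adjusted p = 0.0200) and Csf1r (-0.56, adjusted p = 0.0209) fell, and the neutrophil genes S100a9 (1.81, adjusted p = 0.0127) and S100a8 (1.58, adjusted p = 0.0228) rose. The sum for 6 of 7 adipose markers overlapped, at 45.0 to 205 and 21.1 to 97.8, with its highest value on control 4. All 6 estimates were lower with cinacalcet, and 1 gene passed, Ucp1 of brown fat, which fell without overlap (-5.73, adjusted p = 0.0140) and was well above background on 2 of 4 cinacalcet arrays. The part of these cells in the differences of the members was not tested.

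**Figure D4:**
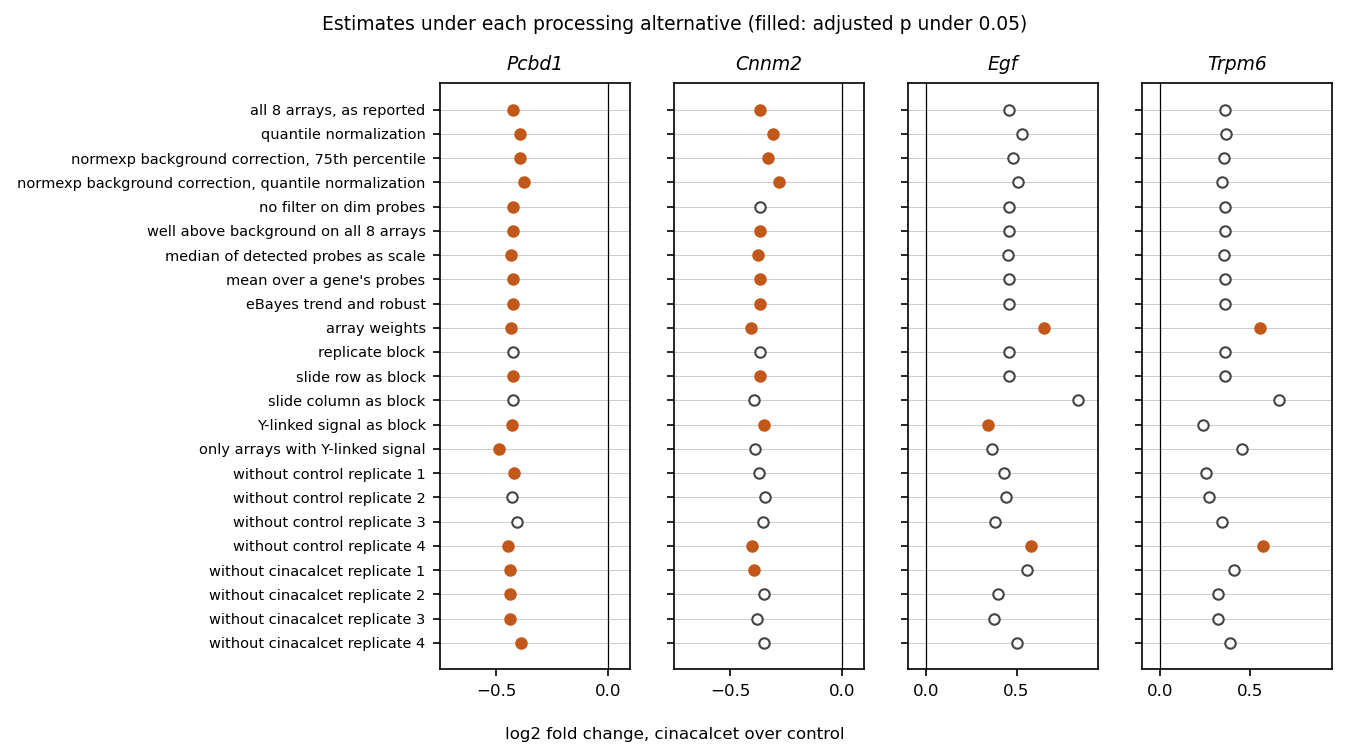
The log2 fold change of Pcbd1, Cnnm2, Egf and Trpm6 is plotted under the reported setting and 22 alternatives, with filled points for an adjusted p under 0.05. All points keep their side of 0, Pcbd1 passes in 18 of the 22 alternatives and Cnnm2 in 12, and Egf and Trpm6 pass in 3 and 2.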

How the data were processed

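RNA of 8 mouse kidney samples, 4 per group by sample title, was hybridised to one-colour Agilent arrays of 62976 spots on 1 slide. The deposited files hold spot intensity on a linear scale, background-corrected by Agilent Feature Extraction 11.0.1.1 per the file headers (9.5 per the submitters' processing notes) and not normalized between arrays. Control spots and outlier-marked spots (118 to 147 per array) were left out, log2 spots of a probe averaged, and each array's 75th percentile over non-control spots subtracted. Kept probes were those exceeding background on 4 or more arrays. They were named by accession through a RefSeq table (GRCm38.p6, 27235 of 55681 probes named), and a gene was represented by its brightest probe.

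Groups were compared in limma 3.58.1 (R 4.3.3, lmFit and eBayes, no covariates) with Benjamini-Hochberg adjustment over 14209 genes. The procedure was tested on simulated data. The members, lists and alternatives were chosen with earlier results of these data known. Cnnm3, Egfr, Pvalb and 5 other marker genes were chosen after their values were seen. Beside these and the members, the text names list genes past the threshold, or 2 with the lowest p where none passed. It also names 3 close followers of Trpm6 and of each called member. One gene that this rule names is not reported here. Normexp used the median spot signal.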

Additional observations from a re-analysis of the deposited data

Results flagged for a closer look

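Among 18 sets of 4 arrays, 9 genes in 2 groups, 1 value stood far from its group. Pcbd1 on the array cinacalcet 4 was at 6.58, with the other 3 cinacalcet arrays all at 6.73, a gap of 0.981 of the group's range, above Dixon's critical value for 4 samples. Chance marks about 1 set in 20. Without that array Pcbd1 had a log2 fold change of -0.39 and passed (limma adjusted p = 0.0345).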

How the results depend on the processing

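The 9 genes kept the sign of their log2 fold change under all 22 alternatives, except Fxyd2, which was 0.00988 with quantile normalization. The counts of called genes moved more. Among all genes 1139 were called, and among the 9 genes 2. With no filter on dim probes these counts were 367 and 1, with array weights 5438 and 6, and with slide column as a block 34 and 0 (limma, 4 of the 9 at an unadjusted p under 0.05). The Y-linked block gave 2417 called genes and 3 of the 9, and the 5 arrays with such signal 1116 and 1. Leaving out 1 array gave 218 to 3356 called genes and 0 to 4 of the 9. The count among the 9 was 0 without control 2 or control 3, where 218 and 245 of all genes were called. It was 4 without control 4, where 3356 of all genes were called. Same-numbered samples had correlations of -0.56 to 0.34 after group means were removed, and 1 of 4 correlated best with its own number. Replicate numbers 2, 3 and 4 each join an array with Y-linked signal and an array without it. These correlations therefore cannot tell whether the numbers pair the samples. With the replicate block 0 genes and 0 of the 9 were called (limma, 2869 and 3 at an unadjusted p under 0.05). The Y-linked genes Ddx3y and Kdm5d stood at -1.92 and -0.54 in the reported fit, where control 4, cinacalcet 2 and cinacalcet 3 lack Y-linked signal. Their sign reversed, Ddx3y to 0.0195 with Y-linked signal as a block and 0.10 on the 5 arrays, and Kdm5d to 0.10 and 0.23. The cause of these changes was not tested. Cldn14, Xist and the Y-linked genes have no value where all 8 arrays must exceed background.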
